A study of Mus musculus with 8 samples.

Results

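Pseudogenes with a name of their own were followed in cultured bone marrow stromal cells of Lgr6-null and wild-type mice. The members were the genes whose symbol ends in -ps, with or without a number after it, and there were 276 of them among the 19460 genes of the normalized count table. Bone marrow stromal cells are the adherent cells of the marrow and include the precursors of osteoblasts, the bone-forming cells. Wild-type cells (4 libraries) and Lgr6-null cells (4 libraries) were compared. In the Lgr6-null mice both copies of Lgr6 carried the Lgr6-GFP-ires-CreERT2 insertion, which encodes a fluorescent reporter and a tamoxifen-inducible recombinase, and C57BL/6 is given as the strain of both genotypes. Both were grown for 10 days in medium that drives bone formation in culture, with serum at 10%, β-glycerophosphate at 4 mM and ascorbic acid at 50 µg/mL, and their polyadenylated RNA was read as 100 bp paired ends. Whether the 4 libraries of a genotype stem from different mice or dishes is not in the labels, and p-values reflect the spread among them, whatever its source. The libraries are named by the numbers of their columns, which are M0 to M3 in wild-type and M0, M2, M3, M4 in Lgr6-null cells, and values of single libraries are given in that order.

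A pseudogene is a copy or remnant of a gene that has lost the ability to make the gene's protein. Processed pseudogenes arise when a messenger RNA is copied back into DNA and inserted elsewhere in the genome, so they lack introns and usually lie on another chromosome than the parent gene. Unprocessed pseudogenes come from duplication of the gene itself, and unitary pseudogenes are genes that lost their function without leaving an intact copy behind. Highly expressed housekeeping genes, above all those of ribosomal proteins, have left many processed copies in mammalian genomes. Because a copy can be almost identical to its parent, a short read may match both places about equally well.

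Per the annotation, 213 members were processed pseudogenes, 16 were unprocessed, 16 transcribed unprocessed, 12 transcribed processed and 3 transcribed unitary pseudogenes, and 5 were polymorphic pseudogenes. The remaining annotated types were protein coding (8 members) and other non-coding transcripts. The names of 126 members began with those of ribosomal proteins. A parent gene could be assigned to 247 members, and it was the coding gene with the closest transcript for 235 of them. The median identity between pseudogene and parent was 98.7% over the aligned bases, and the median pseudogene transcript was 624 bases long. A median of 30.5% of a member's windows of 100 bases also occurred letter for letter in a transcript of another annotated gene. Such windows made up at least 50% of 103 members and were missing in 36. How reads with several matching places were counted is not given in the sources used here, so the levels of members with many shared windows are uncertain.

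The following windows of 120 bases, taken from the annotation's transcripts of build GRCm38 and lying within the parent's coding sequence, show how close the pairs are on which the results turn. In each pair the window with the most differing bases is given, and the capitals mark those bases.
Nudc-ps1: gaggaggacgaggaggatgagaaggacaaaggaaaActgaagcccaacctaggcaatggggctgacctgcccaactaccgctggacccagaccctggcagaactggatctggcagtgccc
Nudc: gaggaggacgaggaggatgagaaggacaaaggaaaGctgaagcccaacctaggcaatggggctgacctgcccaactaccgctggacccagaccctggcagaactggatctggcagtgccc
Glns-ps1: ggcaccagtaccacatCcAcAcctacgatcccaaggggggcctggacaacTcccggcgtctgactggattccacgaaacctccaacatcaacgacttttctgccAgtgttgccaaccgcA
Glul: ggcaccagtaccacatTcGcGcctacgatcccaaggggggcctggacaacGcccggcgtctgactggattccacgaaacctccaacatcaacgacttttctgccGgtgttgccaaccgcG
Nlrp1c-ps: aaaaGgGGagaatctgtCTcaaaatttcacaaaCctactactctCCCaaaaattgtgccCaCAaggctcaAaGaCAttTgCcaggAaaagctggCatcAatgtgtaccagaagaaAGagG
Nlrp1a: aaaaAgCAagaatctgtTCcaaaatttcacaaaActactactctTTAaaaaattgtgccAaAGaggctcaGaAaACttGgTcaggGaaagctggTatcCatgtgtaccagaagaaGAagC
Atp6v0c-ps2: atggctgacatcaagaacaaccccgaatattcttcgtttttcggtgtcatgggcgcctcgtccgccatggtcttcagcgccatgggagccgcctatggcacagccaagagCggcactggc
Atp6v0c: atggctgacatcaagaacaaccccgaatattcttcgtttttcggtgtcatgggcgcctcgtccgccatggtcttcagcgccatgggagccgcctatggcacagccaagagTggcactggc
Rps2-ps13: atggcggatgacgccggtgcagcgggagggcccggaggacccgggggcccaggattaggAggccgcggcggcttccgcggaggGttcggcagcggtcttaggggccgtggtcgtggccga
Rps2: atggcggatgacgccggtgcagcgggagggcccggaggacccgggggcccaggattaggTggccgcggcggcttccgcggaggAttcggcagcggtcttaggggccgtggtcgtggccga

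Nudc-ps1 (chromosome 8) differed from Nudc (chromosome 4) at 2 bases and 4 gap positions of 555 aligned positions. Glns-ps1 (chromosome 11) differed from Glul (chromosome 1) at 24 bases and 12 gap positions of 1126. Nlrp1c-ps differed from its neighbour Nlrp1a on chromosome 11 at 375 bases and 36 gap positions of 3359. Atp6v0c-ps2 (chromosome 6) and Atp6v0c (chromosome 17) differed at 1 base of 465, and Rps2-ps13 (chromosome X) and Rps2 (chromosome 17) at 7 of 882. Of the windows of Atp6v0c-ps2, 72.7% also occurred in Atp6v0c, while no window of Nlrp1c-ps occurred in another gene.

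The depth lay between 7629968 and 21135173 recovered reads per library, and Lgr6-null library M4 was the shallowest. Lgr6 itself was at 1287 ± 303 normalized counts in wild-type and 76.2 ± 19.2 in Lgr6-null cells (SD, n = 4 each; log2 fold change -4.06 ± 0.20 SE, adjusted p = 2.73e-06 in limma). All 10 osteoblast markers were lower in Lgr6-null cells, and their summed level was 1800438 to 2345265 normalized counts in wild-type against 335914 to 417037 in Lgr6-null libraries. Macrophage markers were higher in 8 of 12 cases, with sums of 274750 to 325468 in wild-type against 414094 to 623657 in Lgr6-null libraries. Of all genes tested 12.7% were called lower and 13.0% higher. Markers of other cells were low: the sums were 239 to 584 against 147 to 281 for adipocytes, 116 to 160 against 49.3 to 67.6 for endothelium, 157 to 285 against 130 to 304 for T cells, 21.8 to 54.4 against 22.9 to 211 for granulocytes, 15.8 to 27.9 against 37.7 to 59.2 for B cells and 0 to 4.36 against 0 to 5.02 for erythroid cells. Among them Fabp4 (adipocyte) and Kdr (endothelium) were called lower and Cd79b (B cell) higher. In such bulk RNA, fewer cells of a type and less RNA per cell cannot be told apart.

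Most named pseudogenes were low. The median member had a mean of 6.86 normalized counts over the 8 libraries, against 144 for all genes, and 11 members had a mean above 500. Reads were present in every library for 184 members. Together the members took 0.0760% to 0.129% of the reads of a library. The members with the highest means were Rps2-ps10, Gpr137b-ps, Zfp862-ps, Rpl34-ps1, Atp6v0c-ps2 and Rpl3-ps1.

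Genes were tested where at least 4 libraries had 10 normalized counts or more, which held for 118 of the 276 members. Between the genotypes 8 of these 118 were called at an adjusted p under 0.05 in limma (6.78%), 6 higher and 2 lower in Lgr6-null cells. Among all genes tested 25.7% were called, and among other annotated pseudogenes 10.0%. Higher calls made up 5.08% of the members, 13.0% of all genes and 6.81% of the other pseudogenes, and lower calls 1.69%, 12.7% and 3.19%. After scaling to equal library totals, 9 members were called higher and 1 lower, and over all genes 2886 higher and 1281 lower, against 1855 and 1821. Of members and of all genes with a mean under 50, 7.04% and 16.4% were called, and of those with a mean of 50 or more, 6.38% and 27.9%. The median log2 fold change was -0.08 for members tested and 0.00 for all genes tested, and 87 members changed by less than 0.5 on the log2 scale. Of the 6 members called higher, 5 passed the filter through the Lgr6-null libraries alone and so had to differ, which makes their count and their p-values a description; no test is given of their ratio to the parent. The genotypes did not overlap for 12 members tested (10.2%), against 29.1% of all genes.

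**Figure D1:**
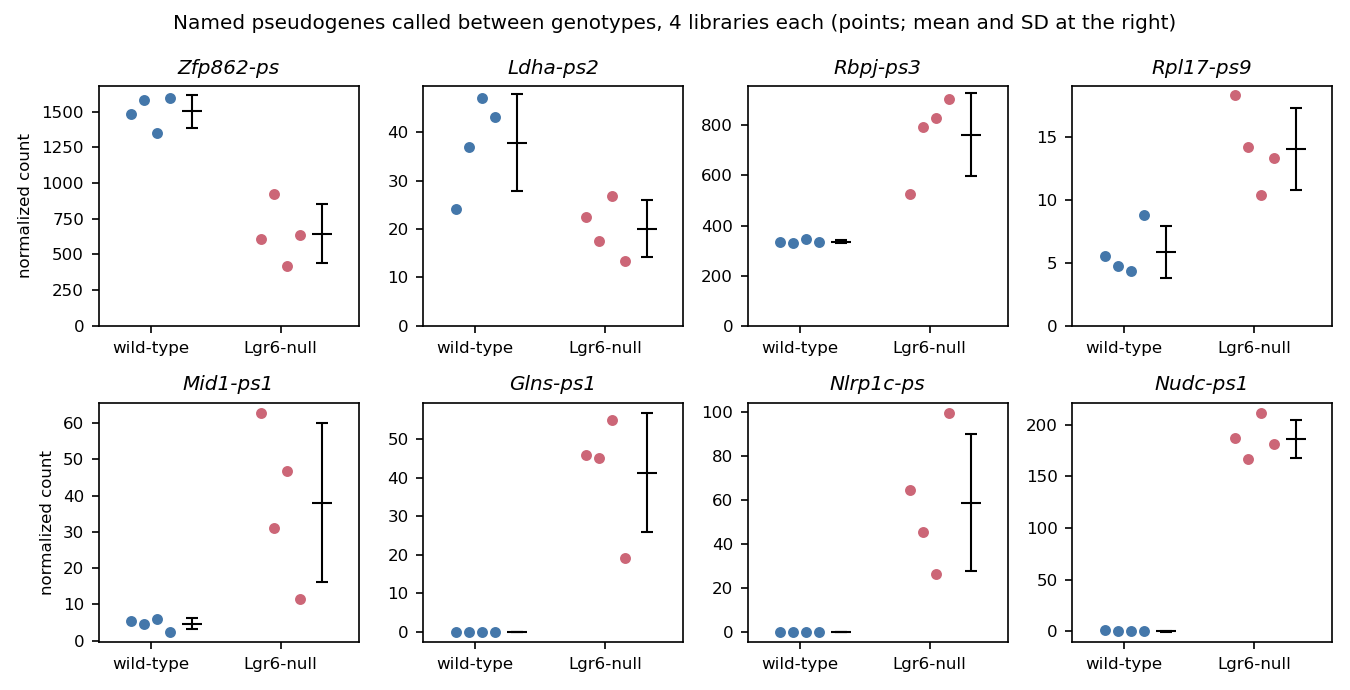
Normalized counts (vertical axes, each with its own scale) of the 8 named pseudogenes called between the genotypes, with 1 point for each of 4 wild-type (blue) and 4 Lgr6-null (red) libraries and the mean and SD in black beside them. Nudc-ps1, Nlrp1c-ps and Glns-ps1 sit at or near 0 in wild-type libraries, and Ldha-ps2 is the 1 member of the 8 whose genotypes overlap.

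Nudc-ps1, a processed copy of Nudc, was the member with the widest gap between genotypes. Its level was 0.928, 0, 0 and 0 normalized counts in wild-type libraries M0 to M3, and 187, 167, 211 and 181 in Lgr6-null libraries. All Lgr6-null libraries were high and close together, and 1 read in all was counted in wild-type cells against 802 in Lgr6-null cells. The log2 fold change was 7.31 ± 0.29 (SE, adjusted p = 8.83e-07 in limma). The ratio of read rates was 767, with an exact 95% binomial interval from 137 to 30313 that covers counting error only.

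The parent Nudc, a chaperone-like partner of the dynein motor that takes part in nuclear movement and cell division, was at 1236, 1419, 1317 and 1282 normalized counts in wild-type libraries. It was at 1177, 1238, 1358 and 1161 in Lgr6-null libraries. The genotypes overlapped, and Nudc was not called (log2 fold change -0.09 ± 0.07 SE, adjusted p = 0.38). Nudc-ps1 stood at 13.5% to 15.9% of the level of Nudc in Lgr6-null libraries and at 0% to 0.075% in wild-type libraries. The log2 ratio of pseudogene to parent was higher by 7.40 in Lgr6-null cells. Of the windows of Nudc-ps1, 69.9% also occurred in Nudc.

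Of 14 genes of the NudC family and of dynein and its regulators, all were tested, 3 were called lower in Lgr6-null cells, where 12.7% of all genes tested were, and the others were not called; the median log2 fold change was -0.06, against 0.00 for all genes tested. The 3 were Nudcd1 (-0.49 ± 0.08 SE, adjusted p = 0.00239) and Nudcd2 (-0.28 ± 0.08, adjusted p = 0.0241), both relatives of Nudc, and Dync1i1 (-1.19 ± 0.28, adjusted p = 0.012), a dynein intermediate chain. The genes whose log2 levels ran most like Nudc-ps1 over the 8 libraries were Eno1b (Pearson r = 0.999), Ptprv (0.997), Ctse (0.996), Gm10704 (0.995) and Scn3b (0.995). This likeness was measured in the same 8 libraries. As Nudc-ps1 was at or near 0 in wild-type libraries, it largely reflects the step between the genotypes.

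Nlrp1c-ps lies beside Nlrp1a and Nlrp1b on chromosome 11, within 0.15 Mb of the start of each in the GRCm38 annotation. The Nlrp1 proteins are sensors that assemble an inflammasome, the complex that activates caspase-1. Nlrp1c-ps was at 0 in every wild-type library, and at 64.3, 45.2, 26 and 99.3 normalized counts in Lgr6-null libraries. The 218 reads were all in Lgr6-null libraries, in which the level was at least 69.5-fold higher when 3 reads are allowed over the wild-type libraries. The log2 fold change was 5.74 ± 0.43 (SE, adjusted p = 2.63e-05). Its Lgr6-null values were widely spread, with M3 lowest and M4 highest.

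Both neighbours were higher too, by less. Nlrp1a was at 4.64, 0.947, 2.61 and 3.80 normalized counts in wild-type libraries, and at 38.4, 35.2, 46.1 and 51.5 in Lgr6-null libraries. The log2 fold change was 3.54 ± 0.37 (SE, adjusted p = 1.52e-04 in limma). Nlrp1a passed the filter through the Lgr6-null libraries alone and so had to differ, which makes its p-value a description. Nlrp1b was at 145, 137, 188 and 176 in wild-type libraries and at 248, 210, 285 and 235 in Lgr6-null libraries. Its genotypes did not overlap (log2 fold change 0.60 ± 0.14 SE, adjusted p = 0.0104 in limma). The log2 ratio of Nlrp1c-ps to Nlrp1b was higher by 5.14 in Lgr6-null cells. Against Nlrp1a, the closer in sequence, the difference was smaller, with log2 fold changes of 5.74 for Nlrp1c-ps and 3.54 for Nlrp1a. Its size is uncertain, as wild-type libraries held 0 reads of Nlrp1c-ps and 5, 1, 3 and 3 reads of Nlrp1a. The value for Nlrp1c-ps ran from 3.53 to 8.89 over the alternatives that tested it. Of the windows of Nlrp1c-ps, 0% occurred in any other gene, and its identity was 87.8% to Nlrp1a and 83.9% to Nlrp1b.

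Among 24 genes of the NLR inflammasome pathway 20 were tested, of which 7 were called higher in Lgr6-null cells, where 13.0% of all genes tested were, and the others were not called; the median log2 fold change was 0.33. Nlrp1a was among the 7, having passed the filter through the Lgr6-null libraries alone. Besides Nlrp1a, the smallest p-values belonged to Nlrc4 (0.59 ± 0.10 SE, adjusted p = 0.00221) and Naip2 (0.64 ± 0.11, adjusted p = 0.0026). Nlrc4 assembles the inflammasome for bacterial flagellin, and Naip2 is a receptor that works with Nlrc4. These genes are expressed in macrophages, and the macrophage markers ran in the same direction: Csf1r, the receptor of macrophage growth factors, was higher by 0.70 on the log2 scale (adjusted p = 0.0034) and C1qa by 0.95 (adjusted p = 8.36e-04), and none of the 12 markers was at 0. The part of macrophage content in the level of Nlrp1c-ps was not tested. The genes most like Nlrp1c-ps over the 8 libraries were Gm4864 (Pearson r = 0.996), Ccn3 (0.994), Synpo (0.992), Col6a5 (0.988) and Ptprv (0.987). As Nlrp1c-ps was at 0 in every wild-type library, these values of r largely reflect the step between the genotypes.

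Glns-ps1 is a processed copy of Glul, which encodes glutamine synthetase. It was at 0 in every wild-type library and at 45.9, 45.2, 55.0 and 19.1 normalized counts in Lgr6-null libraries. The shallow library M4 was the lowest of the 4, and all were above wild-type. All 193 reads were in Lgr6-null libraries, at a level at least 61.5-fold higher when 3 reads are allowed over the wild-type libraries (log2 fold change 5.30 ± 0.40 SE, adjusted p = 2.87e-05). Glul was at 2071, 2834, 2913 and 2789 in wild-type libraries and at 2820, 3697, 3493 and 3121 in Lgr6-null libraries. The genotypes overlapped at their edges and Glul was not called (log2 fold change 0.31 ± 0.12, adjusted p = 0.0892), but it was called higher after scaling to equal library totals (0.41, adjusted p = 0.0283). The log2 ratio of Glns-ps1 to Glul was higher by 4.99 in Lgr6-null cells, and 5.59% of the pseudogene's windows also occurred in Glul. Glul lies on chromosome 1, 18.9 Mb from Lgr6 in the GRCm38 annotation.

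Glns-ps1 and Nlrp1c-ps were the 2 all-or-none members, with no read in one genotype and at least 1 read in each library of the other. They made up 0.725% of the 276 members, against 0.216% of all genes (42 genes) and 0.554% of other annotated pseudogenes. No other member had 0 reads in a whole genotype. Among genes with at least 150 reads, 6 of 13219 were all-or-none (0.0454%), against 2 of 90 named pseudogenes (2.22%). The cut of 150 reads was not set in advance, and many of these genes had far more reads than the 2 members. The share of other annotated pseudogenes was not computed at this cut. All of the 6 but Sost, the bone cell inhibitor of Wnt signaling, were annotated pseudogenes. Beside the 2 named members these were Gm10704 (closest coding gene Rtraf, 98.6% identity), Gm4864 (Hdac1, 94.3%) and Gm12663 (Ublcp1, 99.4%). Gm10704 and Gm4864 had reads in Lgr6-null libraries alone and Gm12663 in wild-type libraries alone. Hdac1 lies on chromosome 4, 4.02 Mb from Nudc, and 1.82% of all other genes tested lie within 10 Mb of Nudc. Rtraf lies on chromosome 14 and Ublcp1 on chromosome 11, and a link between such places was not tested.

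Rbpj-ps3 is a processed copy, in an intron of Cntnap2 on chromosome 6, of Rbpj, the DNA-binding partner through which Notch receptors act on their target genes. It was at 333, 332, 347 and 334 normalized counts in wild-type libraries, and at 527, 792, 827 and 905 in Lgr6-null libraries. The wild-type values lay within a narrow band, and every Lgr6-null library was above it (log2 fold change 1.15 ± 0.15 SE, adjusted p = 5.31e-04). The parent Rbpj was at 2561, 2820, 2949 and 2734 in wild-type libraries and at 4170, 2402, 2691 and 2343 in Lgr6-null libraries. Library M0, lowest of the Lgr6-null libraries for the pseudogene, was the highest for the parent, so that the copy stood at 11.8% to 13.0% of the parent in wild-type libraries, at 12.6% in Lgr6-null M0 and at 30.7% to 38.6% in the other 3. Rbpj was not called (log2 fold change 0.03 ± 0.16, adjusted p = 0.921), and the log2 ratio of copy to parent overlapped between genotypes (difference 1.12, two-sided exact permutation test, p = 0.0571, without adjustment; 4 against 4 libraries cannot go below 0.0286). Rbpj-ps3 shared 77.4% of its windows with Rbpj. Ephb6, 4.92 Mb away on chromosome 6, ran most like Rbpj-ps3 over the 8 libraries (Pearson r = 0.989). Next came Hoxb4 on chromosome 11 (0.9865) and Gm8730 on chromosome 8 (0.9819). Of the 20 genes most like Rbpj-ps3, 1 lay within 10 Mb of it, where 0.805% of all other genes tested lie. Ephb6 was also higher in Lgr6-null cells without overlap, and r includes this step between the genotypes.

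Zfp862-ps, a transcribed unitary pseudogene on chromosome 6 named for a zinc finger protein, was the higher of the 2 members called lower. Its level was 1484, 1584, 1347 and 1598 normalized counts in wild-type libraries, and 605, 922, 419 and 634 in Lgr6-null libraries. The genotypes did not overlap (log2 fold change -1.27 ± 0.19 SE, adjusted p = 0.00138). It had no parent gene in the table, and 0.0503% of its windows occurred in another gene. It lies 1.98 Mb from Rbpj-ps3 and overlaps, on the opposite strand, an exon of Gm7887. The other member called lower, Ldha-ps2, was low, at 24.1, 36.9, 47.0 and 43.0 in wild-type libraries and 22.5, 17.6, 26.8 and 13.4 in Lgr6-null libraries. Its genotypes overlapped and the call was narrow (log2 fold change -0.88 ± 0.29, adjusted p = 0.0476). It was lost without wild-type M1, M2 or M3 or Lgr6-null M0, M2 or M4 (adjusted p from 0.0723 to 0.127), and also without a filter on low values, after scaling to equal library totals and after quantile normalization (adjusted p from 0.0533 to 0.0728). Its parent Ldha, the lactate dehydrogenase subunit of glycolysis, was also called lower (log2 fold change -0.51 ± 0.15, adjusted p = 0.0308), but not without wild-type M1, M2 or M3 or Lgr6-null M2 or M4 (adjusted p from 0.0685 to 0.0862).

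Mid1-ps1, an unprocessed copy on chromosome Y of the X-linked ubiquitin ligase gene Mid1, was at 5.57, 4.73, 6.10 and 2.53 normalized counts in wild-type libraries and at 62.6, 31.0, 46.8 and 11.5 in Lgr6-null libraries. All Lgr6-null libraries were higher, M4 by the least (log2 fold change 2.58 ± 0.50 SE, adjusted p = 0.00456). Mid1 was at 147, 126, 133 and 144 in wild-type libraries and at 122, 150, 97.4 and 244 in Lgr6-null libraries, and was not called (0.07 ± 0.24, adjusted p = 0.865). The Y-linked genes Ddx3y (adjusted p = 0.732), Uty (0.994), Kdm5d (0.54) and Eif2s3y (0.953) were not called, with log2 fold changes from -0.06 to 0.09. Mid1-ps1 shared 76.8% of its windows with Mid1. Rpl17-ps9, a copy of a gene for a protein of the large ribosomal subunit, was at 5.57, 4.73, 4.36 and 8.86 in wild-type and 18.4, 14.2, 10.4 and 13.4 in Lgr6-null libraries (log2 fold change 1.15 ± 0.32, adjusted p = 0.027). These levels rest on 83 reads, and the call was lost without wild-type M0, M1 or M2 (adjusted p from 0.0551 to 0.0693). Rpl17 was not called (0.04 ± 0.08, adjusted p = 0.72).

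In 107 pairs, over 82 parents, pseudogene and parent were both tested, and a parent with several pseudogenes counts in each of its pairs. The pseudogene was called in 7 of these pairs and the parent in 10, where 25.7% of all genes tested were called. Both were called in 2 pairs, Nlrp1c-ps with Nlrp1b, which stands for its parent in these counts, and Ldha-ps2 with Ldha, in the same direction each time. In the other 5 pairs with a called pseudogene the parent was not called. The median pseudogene of the 243 pairs with a parent in the table stood at 0.384% of its parent's level, and 18 exceeded 10%. Of 55 ribosomal protein pseudogenes tested 1 was called, and of 95 coding genes of ribosomal proteins 2 were called higher and 5 lower. Of all genes tested 13.0% were called higher and 12.7% lower.

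**Figure D2:**
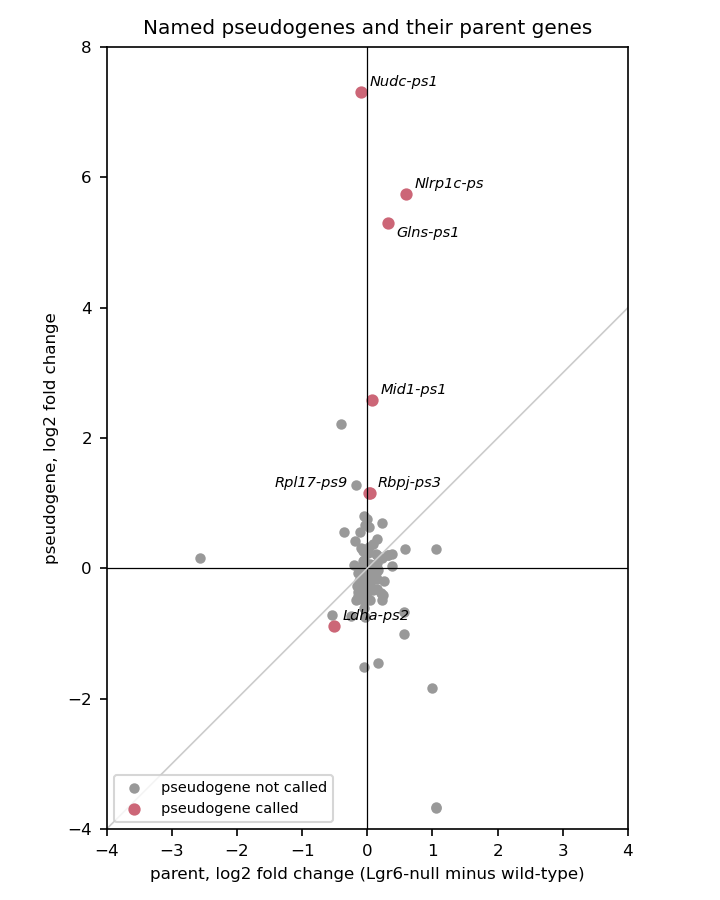
Log2 fold change (Lgr6-null minus wild-type) of the parent gene (horizontal axis) and of the pseudogene (vertical axis) for the 107 pairs with both tested, with pairs of a called pseudogene in red and named, and equal changes on the grey line. Nudc-ps1, Nlrp1c-ps and Glns-ps1 stand above 5 on the vertical axis, with Nudc, Nlrp1b and Glul between -0.09 and 0.60 on the horizontal axis; Nlrp1a, closer to Nlrp1c-ps in sequence than Nlrp1b and not plotted, was at 3.54.

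Several of the highest members differed more between libraries of the same genotype than between genotypes. After the values were seen, members were counted whose log2 level spanned more than 3 between libraries of a genotype, an 8-fold range, and whose highest value was at least 20. This held for 9 of 108 members (8.33%), against 1.69% of all genes and 9.98% of other annotated pseudogenes with such a highest value. Where the highest value lay between 20 and 500, the shares were 6.25% of members and 2.91% of all genes. The 9 were Rps2-ps10, Rps2-ps13, Atp6v0c-ps2, Rpl3-ps1, Rpl34-ps2, Mrpl48-ps, Nxpe1-ps, Hmgb1-ps8 and Tpt1-ps6. Rpl34-ps2 and Tpt1-ps6 were too low to be tested, and the other 7 were not called between genotypes in limma, edgeR or DESeq2.

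**Figure D3:**
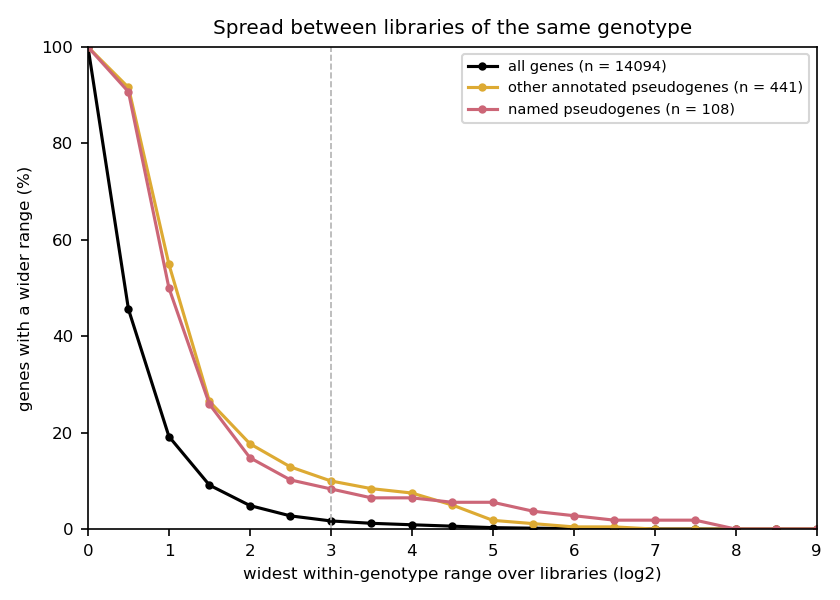
Percentage of genes (vertical axis) whose widest range between libraries of the same genotype exceeded the log2 value on the horizontal axis, for 108 named pseudogenes (red), 441 other annotated pseudogenes (yellow) and all 14094 genes (black) with a highest value of at least 20. At the dashed line, a log2 range of 3, the shares are 8.33%, 9.98% and 1.69%.

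Rps2-ps10, a transcribed processed copy of the small-subunit ribosomal protein gene Rps2 in an intron of Pde6a, had the highest mean of all members. It was at 4337, 22.7, 4346 and 2274 normalized counts in wild-type libraries M0 to M3, and at 20.9, 25.1, 24.5 and 2766 in Lgr6-null libraries. Wild-type M0 and M2 were highest, wild-type M3 and Lgr6-null M4 came next, and the other 4 libraries were far below. The parent Rps2 ran the other way: it was at 3324, 14320, 3212 and 9551 in wild-type libraries, and at 14202, 13691, 14356 and 9901 in Lgr6-null libraries. The pseudogene exceeded its parent in wild-type M0 and M2, at 130% and 135% of its level, and stood at 0.147% to 0.183% of it in the 4 low libraries. Neither was called (log2 fold change -3.66 ± 1.96 SE, adjusted p = 0.207, and 1.06 ± 0.44, adjusted p = 0.109). A second copy, Rps2-ps13, went up and down in the same libraries, at 241, 0, 235 and 161 in wild-type and 0.835, 0.837, 0 and 103 in Lgr6-null libraries. Of the 783 windows of Rps2-ps13, 599 also occurred in Rps2-ps10, so a read may match both copies. Rps2-ps13 also had the lowest log2 fold change of all members tested, -3.67 ± 1.95 (adjusted p = 0.204). Single libraries decided these calls: without wild-type M1 the adjusted p was 0.0421 for Rps2-ps10, 0.0274 for Rps2-ps13 and 0.0237 for Rps2, and without Lgr6-null M4 it was 0.0396 for Rps2-ps10.

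Atp6v0c-ps2, a processed copy of the gene for the proton-conducting ring subunit of the vacuolar ATPase, followed the same libraries. It was at 1733, 62.5, 2074 and 1004 normalized counts in wild-type libraries, and at 101, 107, 108 and 1195 in Lgr6-null libraries. Atp6v0c was at 1278, 2760, 1381 and 2118 in wild-type libraries and at 4029, 3554, 4551 and 2512 in Lgr6-null libraries, lowest in wild-type M0 and M2, where the copy was highest. The pseudogene was not called (log2 fold change -1.83 ± 1.15 SE, adjusted p = 0.283), and the parent was called higher in Lgr6-null cells (1.00 ± 0.26, adjusted p = 0.0182). Without wild-type M1 the pseudogene's adjusted p was 0.037, and without wild-type M2 or Lgr6-null M0 the parent's was 0.0534. Added together, parent and copy were at 2822 to 3455 in wild-type libraries and at 3661 to 4659 in Lgr6-null libraries, a narrower spread within each genotype than either had alone. Of the sum, the copy made up 57.5%, 2.21%, 60.04% and 32.2% in wild-type libraries and 2.45%, 2.93%, 2.31% and 32.2% in Lgr6-null libraries.

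Atp6v0c and Rps2 lie 0.554 Mb apart on chromosome 17, while Rps2-ps10, Rps2-ps13 and Atp6v0c-ps2 lie on chromosomes 18, X and 6. Gm9825, an unnamed processed pseudogene on chromosome 6 among the genes most like Rps2-ps10 over the libraries (Pearson r = 0.994), was at 402, 12.3, 390 and 204 normalized counts in wild-type libraries and at 8.35, 10.9, 8.18 and 181 in Lgr6-null libraries. Its closest coding gene was Rnps1 (99.4% identity), which encodes a protein of the exon junction complex and lies between Atp6v0c and Rps2, 0.304 Mb from Rps2. Rnps1 was at 555, 1086, 536 and 889 in wild-type libraries and at 1024, 1105, 1109 and 798 in Lgr6-null libraries. Rps2, Rnps1 and Atp6v0c were thus all lowest in wild-type M0 and M2, where copies of each on other chromosomes were highest. AC166102.1, a non-coding gene 0.0616 Mb from Rps2, had reads in the 4 libraries in which these copies were high and in no other, at 25.0, 0, 40.1 and 31.6 in wild-type and 0, 0, 0 and 26.7 in Lgr6-null libraries.

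**Figure D4:**
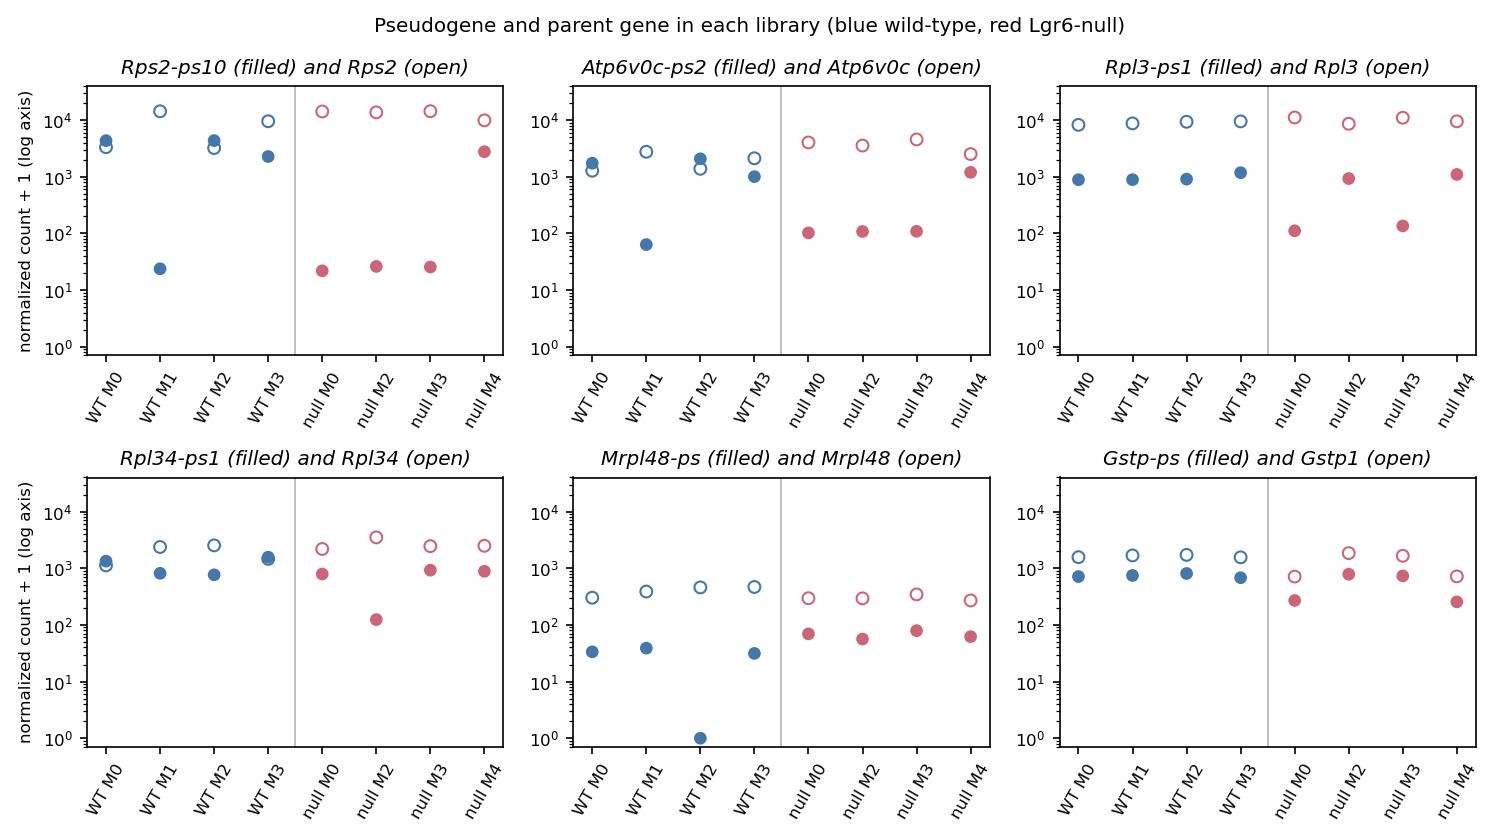
Normalized count + 1 on a log axis (vertical) of 6 pseudogenes (filled) and their parents (open) in each of the 8 libraries (horizontal; wild-type in blue, Lgr6-null in red). Rps2-ps10 and Atp6v0c-ps2 are high in wild-type M0, M2 and M3 and Lgr6-null M4, where their parents are lowest, while Gstp-ps is low together with Gstp1 in Lgr6-null M0 and M4.

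Other pairs divided the libraries differently. Rpl3-ps1, a copy on chromosome X of the large-subunit ribosomal protein gene Rpl3, was at 886, 889, 908 and 1177 normalized counts in wild-type libraries and at 110, 929, 135 and 1098 in Lgr6-null libraries. Lgr6-null M0 and M3 were low and the rest alike. Rpl3 was at 11121 and 11008 in those 2 libraries and at 8246 to 9513 in the other 6. The copy was not called (log2 fold change -1.44 ± 0.70 SE, adjusted p = 0.164; 0.0456 without Lgr6-null M4), and it shared 85.8% of its windows with Rpl3. Gm12816, a second copy of Rpl3 (97.6% identity), was lowest in the same libraries, at 3.34 and 2.23 against 49.6 to 100 elsewhere. Of the 1111 windows of Rpl3-ps1, 212 also occurred in Gm12816.

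Rpl34-ps1 (chromosome 6) was at 1334, 813, 765 and 1567 normalized counts in wild-type libraries and at 790, 123, 923 and 884 in Lgr6-null libraries. Lgr6-null M2 was the lowest, and wild-type M0 and M3 the highest. The parent Rpl34, another gene of the large ribosomal subunit, was at 1122, 2371, 2533 and 1461 in wild-type libraries and at 2190, 3507, 2453 and 2490 in Lgr6-null libraries, highest in Lgr6-null M2 and lowest in wild-type M0 and M3. Their sum ran from 2456 to 3630 over the 8 libraries, and neither was called (adjusted p = 0.249 for the pseudogene and 0.136 for Rpl34). Gm4705 and Gm10154, unnamed copies of Rpl34, were at 0 in Lgr6-null M2 and had reads in each of the other 7 libraries. Of the 255 windows of Rpl34-ps1, 154 also occurred in Gm10154 and 93 in Gm4705, so a read may match several copies.

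Mrpl48-ps (chromosome 4), a copy of the mitochondrial ribosomal protein gene Mrpl48, was at 32.5, 37.9, 0 and 30.4 normalized counts in wild-type libraries and at 68.5, 55.3, 78.1 and 61.1 in Lgr6-null libraries. Wild-type M2 was at 0, and every Lgr6-null library was above every wild-type one, but the gene was not called (log2 fold change 2.22 ± 1.02 SE, adjusted p = 0.144; 0.94 and adjusted p = 0.0109 without wild-type M2). Trim34b, which lies on chromosome 7 at 3.78 Mb from Mrpl48, was most like it over the libraries (Pearson r = 0.984), at 31.5, 28.4, 0 and 17.7 in wild-type and 72.7, 72.8, 75.1 and 80.2 in Lgr6-null libraries. Mrpl48 itself was at 301, 387, 458 and 466 in wild-type libraries and at 295, 293, 345 and 269 in Lgr6-null libraries (adjusted p = 0.063; 0.00969 without wild-type M0, 0.0495 without Lgr6-null M3, 0.0215 with library weights and 0.031 in DESeq2).

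Gstp-ps, on chromosome 1 in an intron of Traf5, was named after its values were seen because it ran with Gstp1 and not against it. It was at 712, 745, 807 and 680 normalized counts in wild-type libraries and at 269, 784, 731 and 254 in Lgr6-null libraries. Gstp1, a glutathione transferase gene on chromosome 19, was at 1567, 1682, 1721 and 1557 in wild-type libraries and at 712, 1850, 1658 and 718 in Lgr6-null libraries. Both were low in Lgr6-null M0 and M4, and the copy kept to 35.4% to 46.9% of Gstp1 in all 8 libraries. Neither was called (adjusted p = 0.169 and 0.22). The closest coding gene of Gstp-ps in sequence was not Gstp1 (97.6% identity) but its neighbour Gstp2 (99.2%), which was at 16.7, 18.9, 6.10 and 12.7 in wild-type libraries and at 6.68, 5.02, 14.9 and 3.82 in Lgr6-null libraries. Gstp2 was far below Gstp-ps in every library, and unlike it was also low in wild-type M2 and Lgr6-null M2. Its levels rest on 91 reads in all, with 7 and 6 in those libraries, so its pattern over libraries is uncertain. Of the 20 genes most like Gstp-ps, 7 lay within 10 Mb of Gstp1, where 1.61% of all other genes tested lie. Within 10 Mb of Gstp-ps lay 0 of the 20. Gstp1 itself is among the 7, and Gstp-ps was named because it ran with Gstp1, so this count is a description. For the other named members tested, Nxpe1-ps aside, such counts at their own or their parent's place were 0 to 3. Aldh3b2, 0.0631 Mb from Gstp1, was at 0.835 and 0 in Lgr6-null M0 and M4 and at 51.3 to 78.7 in the other 6 libraries.

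Nxpe1-ps and Hmgb1-ps8 shared few or no windows with other genes. Nxpe1-ps, a transcribed unprocessed pseudogene on chromosome 9 with 0% of its windows elsewhere, was at 29.7, 0, 76.7 and 55.7 normalized counts in wild-type libraries and at 78.5, 77.9, 96.6 and 55.4 in Lgr6-null libraries. Wild-type M1 was at 0. Of the 20 genes most like it, 5 lay within 10 Mb on chromosome 9, where 1.17% of all other genes tested lie. Among them Nnmt, 0.174 Mb away, was also lowest in wild-type M1, at 62.5 against 132 to 297 in the other 7 libraries. Hmgb1-ps8, in an intron on chromosome 10, was at 20.4, 22.7, 16.5 and 16.5 in wild-type libraries and at 0, 46.1, 0 and 49.6 in Lgr6-null libraries, while Hmgb1, the chromatin protein gene, kept to 2101 to 2436 in all 8. The libraries at 0, Lgr6-null M0 and M3, were those in which Rpl3-ps1 was low.

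Gpr137b-ps, a transcribed unprocessed copy 0.743 Mb from its parent Gpr137b on chromosome 13, was high in every library and ran close to its parent. It was at 845, 1081, 1130 and 1009 normalized counts in wild-type libraries and at 1155, 1103, 1260 and 1172 in Lgr6-null libraries, and at 70.6% to 94.3% of Gpr137b, a lysosomal membrane protein gene, in all 8. It was not called (log2 fold change 0.21 ± 0.09 SE, adjusted p = 0.121; 0.0186 after scaling to equal library totals), nor was Gpr137b (0.15 ± 0.14, adjusted p = 0.48). The log2 ratio differed by 0.06 between the genotypes (two-sided exact permutation test, p = 0.6). Of the windows of Gpr137b-ps 14.98% also occurred in Gpr137b.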

How the data were processed

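Polyadenylated RNA of 4 Lgr6-null and 4 wild-type libraries was measured. The authors deposited a signal, normalized counts of 19460 genes, and per the submitters' processing notes used HISAT2 2.1.1, HTSeq 0.13.5, DESeq2 and build GRCm39; which annotation and strand setting they used, and how they treated reads with several places, is not given in the sources used here. Whole reads were recovered, as 100% of the values of every column were multiples of 1 step (tolerance 0.01 read); the lowest gene total was 11 reads. Symbols, biotypes and places came from GENCODE M21 (GRCm38), matched by identifier for 19361 genes and unmatched for 99; no coordinates are printed.

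The trend method of limma 3.58.1, in R 4.3.3, was run on log2(normalized count + 1) over all 14294 genes with at least 10 in at least 4 of 8 libraries, without covariates, with Benjamini-Hochberg adjustment over all of them. Fold changes subtract wild-type from Lgr6-null on this scale and understate the change of low genes. The fit was tested on simulated data. Parents were taken from the name or a hand table; identities came from blastn 2.17.0. The pair ratio is log2((pseudogene + 1)/(parent + 1)). The named genes were Lgr6, Nudc-ps1, Nlrp1c-ps, all-or-none members, called members, the 6 highest means, the lowest and highest fold change, and their parents; Gstp-ps, the members with a wide within-genotype range and the unnamed copies and neighbouring genes were chosen after values were seen. Members and lists were chosen with earlier results of these data known; 1 gene list is not reported here. Alternatives were other pseudocounts, filters, scalings, library weights, edgeR 4.0.16 and DESeq2 1.42.0 on recovered reads, a replicate block and each library left out.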

Additional observations from a re-analysis of the deposited data

Results flagged for a closer look

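In each genotype of 4 libraries, the gap between the highest or lowest library and its nearest neighbour was compared with the whole range for Lgr6, the named pseudogenes and their parents. Of 74 groups examined, 9 had a gap over the 95% critical value of Dixon's test, which chance passes in about 1 in 20 unselected, independent groups. These groups include members named after their values were seen and genes that ran together, so the 9 cannot be read against that share. In Lgr6-null library M4, Rps2-ps10 was at 2766 normalized counts against 20.9 to 25.1 in the other 3 Lgr6-null libraries, Rps2-ps13 at 103 against 0 to 0.837, and Atp6v0c-ps2 at 1195 against 101 to 108. In the same library the parent Rps2 was at 9901 against 13691 to 14356. In Lgr6-null library M2, Rpl34-ps1 was at 123 against 790 to 923. In wild-type library M3, Rpl3-ps1 was at 1177 against 886 to 908, and in wild-type M2 Rbpj-ps3 was at 347 against 332 to 334. Nudc-ps1 was at 0.928 in wild-type M0, against 0 in the other 3 wild-type libraries; 1 read beside 3 values of 0 exceeds the critical value whatever its level. Glul was at 2071 in wild-type M0 against 2789 to 2913.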

How the results depend on the processing

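Lgr6 kept its direction and its call under every alternative, from -4.22 to -3.92 on the log2 scale. Over the alternatives that tested them, the log2 fold change was 5.19 to 9.28 for Nudc-ps1, 3.53 to 8.89 for Nlrp1c-ps and 3.13 to 8.48 for Glns-ps1. Their wild-type levels were at or near 0, so the size of these fold changes depends on the setting more than the SE shows. The 6 members called higher were 2 where a mean of at least 50 was required, 2 without the members sharing at least 50% of their windows (an alternative chosen after seeing the data), and 5 to 9 under the other scalings, pseudocounts and tools. The 2 called lower were 1 where a mean of at least 50 was required, with the same total and with quantile normalization, and 4 with DESeq2. Leaving out 1 library gave 1 to 7 higher and 1 to 5 lower calls; without any 1 of the 4 Lgr6-null libraries 1 or 2 were called higher, because members with reads in Lgr6-null cells alone then had 3 libraries past the minimum and were not tested. Over all genes, 1855 higher calls became 2886 with the same total, and 1280 to 1797 without 1 library; 1821 lower calls became 1286 to 1764 without 1 library. The median log2 fold change of members, -0.08, was 0.01 with the same total and 0.02 with quantile normalization, and -0.20 to -0.07 without 1 library. The all-or-none count of 2 was 3 where 1 read over a genotype was allowed, and 2 to 3 without 1 library. The count of 9 members with a wide range within a genotype became 16 at a log2 range over 2 (chosen after seeing the data). Column numbers shared by both genotypes did not pair the libraries: deviations of same-numbered libraries correlated at -0.0096, -0.117 and 0.0267. With the replicate block the calls over all genes were 937 higher and 1021 lower, and those over members 5 higher and 4 lower. In that fit wild-type M1 and Lgr6-null M4, whose numbers occur once, add nothing to the difference. Ldha-ps2 (adjusted p = 0.217), Rpl17-ps9 (0.174), Ldha (0.194) and Nlrp1b (0.0849) were not called in it, and Rps2-ps10 (2.93e-04), Rps2-ps13 (6.93e-04), Atp6v0c-ps2 (9.49e-04), Rps2 (0.028), Glul (0.0342) and Rpl34 (0.0146) were.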
